A study of Mus musculus with 6 samples.

Results

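The 7 genes examined here encode the pore-forming subunits of the AMPA receptor (Gria1, Gria2, Gria3 and Gria4) and the main subunits of the NMDA receptor (Grin1, Grin2a and Grin2b). They were chosen by name, and all 7 are among the 7507 genes listed for the RNA side of the experiment. RNA was profiled in 3 sections of fresh frozen adult mouse brain by BALI-Multiome, in which cDNA and tagmented chromatin are labeled in situ and a barcode is ligated where the tissue is illuminated. In each section the granular layer of the dentate gyrus (DG) and the CA1 of the hippocampus were illuminated separately and given different barcodes, so every section yielded 1 DG and 1 CA1 library. In the protocol the DG was illuminated and ligated before the CA1, so barcode and order cannot be told apart from region. No further treatment separates these groups. The characteristics in the labels give an age of 12 weeks and the protocol in the same labels gives 8 to 12 months. The strain and sex were not given in the sources used here, nor was it stated whether the 3 sections come from 3 animals, so that p-values measure the spread between sections only.

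AMPA and NMDA receptors are tetrameric cation channels that open on binding glutamate. AMPA receptors carry most of the fast current at excitatory synapses, and a receptor that holds the edited GluA2 subunit, the product of Gria2, passes little calcium. NMDA receptors need glutamate together with glycine or D-serine, are blocked by magnesium at rest, and admit the calcium that triggers synaptic plasticity. Each NMDA receptor contains the obligatory GluN1 subunit, the product of Grin1, together with GluN2 subunits such as GluN2A (Grin2a) and GluN2B (Grin2b), and the hippocampus is a classic site for the study of both receptor families.

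Expression was measured in UMIs, random tags that count each captured molecule once, and a share is the percentage of the gene-assigned UMIs of a library that belong to a gene. The DG libraries held 4572 to 17999 UMIs and the CA1 libraries 2844 to 9357. Within each section the DG library held 1.29 to 1.92 times as many UMIs as its CA1 partner, so depth and region cannot be told apart. A gene without a UMI may still reach a share of 0.0167% in the deepest library and of 0.105% in the shallowest (3 UMIs, counting error only). Every library is a bulk sample of the illuminated area, in which fewer cells of a type and less RNA per cell cannot be told apart. Of 10 DG granule cell markers 4 were listed, of which Synpr had 6 UMIs in the DG and 0 in the CA1 and C1ql3, Calb1 and Lct together 0 and 5, and the defining markers Prox1 and C1ql2 were not among the genes listed. Of 10 CA1 pyramidal cell markers 8 were listed, with 9 UMIs in the DG and 18 in the CA1 (Wfs1 0 and 2, Neurod6 0 and 2, Mpped1 1 and 3, Pou3f1 6 and 4), so the regional labels could not be checked firmly from RNA.

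Together the 7 genes took 689 of 45935 UMIs. Of these, 349 UMIs belonged to AMPA subunits and 340 to NMDA subunits, and Gria2 and Grin2b alone accounted for 76.6% of the 689. Grin2b, the NMDA subunit that predominates early in development and persists in the adult hippocampus, had a share higher in the DG than in the CA1 in 3 of 3 sections. No member passed the threshold of the test across all genes. In UMIs not scaled by length, the regional differences in the balance of AMPA to NMDA subunits and in that of Gria1 to Gria2 were smaller than their SD between sections.

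Among the NMDA subunits, Grin2b (genome build mm10, chromosome 6, 135713221 to 136173615, minus strand) was counted 126, 41 and 52 times in sections 1, 2 and 3 of the DG, and 55, 13 and 33 times in those of the CA1. As a share this gave 0.700%, 0.897% and 0.826% for the DG and 0.588%, 0.457% and 0.678% for the CA1. Every DG library thus lay above every CA1 library, although the gap between the DG library of section 1 and the CA1 library of section 3 was small. The DG mean was 0.807% ± 0.0996 and the CA1 mean 0.574% ± 0.111 (SD, n = 3 sections), 1.41 times as high in the DG (exact permutation test, two-sided, p = 0.1, and 3 against 3 cannot go lower). With the libraries paired by section, an exact sign-flip test gave p = 0.25, the lowest possible with 3 pairs. The difference of 0.233 percentage points was 0.130 without section 2. With the top 5 genes left out of the library total it was 0.241, but the regions then overlapped (exact permutation test, two-sided, p = 0.2). The separation of the regions thus depended on the total used. Within sections 1, 2 and 3 the share in the DG was 1.19 (exact 95% interval 0.861 to 1.67), 1.96 (1.03 to 3.99) and 1.22 (0.772 to 1.94) times that in the CA1. These intervals cover counting error only, and that of section 2 alone excluded equality. Of the 62 genes with at least 60 UMIs over the 6 libraries, 2 had a share in every DG library above that of every CA1 library (3.23%), Grin2b and Xist. Of the 5 members with at least 10 UMIs, Grin2b was the 1 without overlap in this direction, against 7.11% of the 999 genes with as many UMIs. In the opposite direction, 0 members lay wholly below the CA1, against 5.11% of those 999 genes and 6.45% of the 62.

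By UMIs, without scaling by length, Grin2b ranked between place 4 and place 10 of all genes in the 6 libraries. It supplied 94.1% of the NMDA subunit UMIs. Grin2a (chromosome 16, 9567901 to 9996083, minus strand), the subunit that joins NMDA receptors as synapses mature, had 12, 0 and 1 UMIs in the DG, against 2, 2 and 1 UMIs in the CA1. All but 6 of these UMIs lay in the DG of section 1, and the regions overlapped, with mean shares of 0.0275% ± 0.0348 (DG) and 0.0374% ± 0.0285 (CA1; SD, n = 3 sections; exact permutation test, two-sided, p = 0.5). As a part of the UMIs of Grin2a and Grin2b, Grin2a took 8.70%, 0% and 1.89% in the DG, against 3.51%, 13.3% and 2.94% in the CA1. The exact 95% interval for the 0 of 41 UMIs in the DG of section 2 reached 8.60%, and that for the 2 of 15 UMIs in the CA1 of the same section ran from 1.66% to 40.5%, so a regional difference in this balance was not detectable at this depth. Its direction rested on section 2, without which the DG minus CA1 difference turned from -3.07 to 2.07 percentage points (0.303 without CA1 replicate 2).

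Grin1 (chromosome 2, 25291177 to 25319187, minus strand), which encodes the subunit every NMDA receptor requires, had 2 UMIs in the DG library of section 1 and 0 in the other 5 libraries. With 0 of 17066 UMIs in the CA1, a share of up to 0.0176% is allowed, which is above the 0.00693% found over the 3 DG libraries, so both regions lay at or below the limit. The noncoding gene Grin1os (chromosome 2, 25291258 to 25298660) lies on the opposite strand within Grin1, and its exons cover 1269 bases, or 29.0%, of the annotated exon sequence of Grin1. Counting under default options ignores the strand and leaves out reads that fall on exons of both genes. Grin1os itself had 4, 0 and 1 UMIs in the DG, against 2, 1 and 0 in the CA1, so the counts of both genes are uncertain. Exons of noncoding genes covered 0.575% and 0.305% of the exon sequence of Grin2b, and shared exon sequence was found for none of the 4 AMPA subunit genes or Grin2a.

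**Figure D1:**
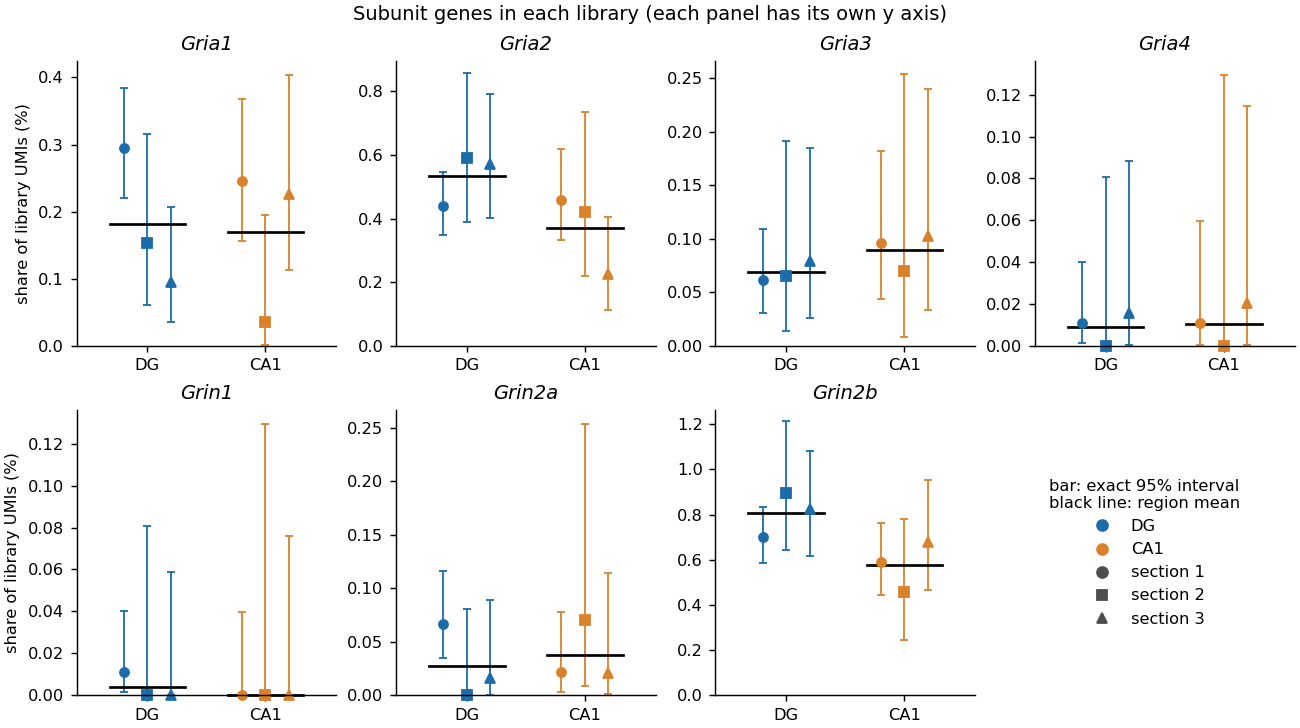
Share of the UMIs of a library (%, linear y axis, 1 scale per panel) for each of the 7 subunit genes, in the DG (blue) and CA1 (orange) libraries of sections 1 (circle), 2 (square) and 3 (triangle), with exact 95% intervals for counting error and the region mean as a black line. Grin2b is the 1 gene whose DG points (0.700% to 0.897%) all lie above its CA1 points (0.457% to 0.678%), while the intervals of Gria4, Grin1 and Grin2a reach or nearly reach 0 in most libraries.

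Among the AMPA subunits, Gria2 (chromosome 3, 80681450 to 80804227, minus strand) had 79, 27 and 36 UMIs in the DG, against 43, 12 and 11 UMIs in the CA1. As a share this gave 0.439%, 0.591% and 0.572% for the DG and 0.460%, 0.422% and 0.226% for the CA1. Sections 2 and 3 had more in the DG and section 1 slightly less, so the regions overlapped. The means were 0.534% ± 0.0826 and 0.369% ± 0.125 (SD, n = 3 sections), and the difference of 0.164 percentage points was below its SD of 0.183 between sections (exact permutation test, two-sided, p = 0.2). It was 0.0929 without CA1 replicate 3, 0.0740 without section 3 and 0.257 without section 1. The DG over CA1 ratio of section 3, 2.53 with an exact 95% interval of 1.26 to 5.51, stood against 0.955 (0.651 to 1.42) in section 1, the deepest section.

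Gria1 (chromosome 11, 57011571 to 57330244, plus strand), whose product GluA1 is needed for much of the plasticity of CA1 synapses, gave 53, 7 and 6 UMIs in DG tissue, against 23, 1 and 11 UMIs in the CA1. As a share this gave 0.294%, 0.153% and 0.0953% for the DG and 0.246%, 0.0352% and 0.226% for the CA1. The sections disagreed, with the DG higher in sections 1 and 2 and the CA1 higher in section 3. The means of 0.181% ± 0.102 and 0.169% ± 0.116 (SD, n = 3 sections) were indistinguishable (exact permutation test, two-sided, p = 1). Without DG replicate 1 the difference of 0.0119 percentage points turned to -0.0448, and without CA1 replicate 2 to -0.0550. It also turned without section 1 (-0.00645) or section 2 (-0.0411). Both libraries of section 1 carried much Gria1: 76 of its 101 UMIs, or 75.2%, came from that section, which held 59.6% of all UMIs.

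Gria3 (chromosome X, 41400819 to 41678601, plus strand) gave 11, 3 and 5 UMIs in DG tissue, against 9, 2 and 5 in the CA1. As a share this gave 0.0611%, 0.0656% and 0.0794% for the DG and 0.0962%, 0.0703% and 0.103% for the CA1. Its share was lower in the DG in 3 of 3 sections, with a mean difference of -0.0211 percentage points (DG minus CA1, SD 0.0153), although the regions overlapped (exact permutation test, two-sided, p = 0.2). A share lower in the DG in all 3 sections was found for 11.8% of the 999 genes with at least 10 UMIs, and a share higher in all 3, as that of Grin2b, for 13.8%. Gria4 (chromosome 9, 4417893 to 4796234, minus strand), a subunit best known from interneurons and the developing brain, had 2, 0 and 1 UMIs in the DG, against 1, 0 and 1 in the CA1, too few for a comparison.

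In edgeR's quasi-likelihood test of the DG against the CA1, 43 genes had enough counts, and 0 (0%) were called at an adjusted p under 0.05 (Benjamini-Hochberg), as by DESeq2. Of the 7 members, Grin2b, Gria2 and Gria1 passed the filter on low counts, while Gria3, Gria4, Grin1 and Grin2a did not. At an unadjusted p under 0.05, 2 genes (4.65%) were higher in the DG, Grin2b and Gria2, and 1 gene (2.33%) was lower, Fth1, a ferritin subunit, singled out after its value was seen. DESeq2 called 0 genes at that level, and both members lost it in edgeR without TMM scaling, with unadjusted p of 0.0784 (Grin2b) and 0.119 (Gria2) under RLE size factors and 0.0800 and 0.124 on total UMIs. Grin2b had a log2 fold change of 0.54 (standard error 0.23) and Gria2 of 0.56 (standard error 0.27), each with an adjusted p of 0.650 in edgeR, and Gria1 one of 0.21 (standard error 0.39, adjusted p = 0.910). Single libraries moved these values: that of Gria2 was 0.27 without CA1 replicate 3 and 0.95 without CA1 replicate 1, and without a whole section it was 1.11 (section 1) or 0.19 (section 3), while that of Grin2b was 0.29 without section 2. The median over these 3 was 0.54, against -0.022 over the 43 genes tested. With a looser filter of 10 UMIs over all libraries, 5 members were among 999 genes tested, and their log2 fold changes were 0.49 for Grin2b, 0.50 for Gria2, 0.13 for Gria1, 0.49 for Grin2a and -0.41 for Gria3, with adjusted p in edgeR from 0.929 to 1.00. The value of Grin2a rests on its 12 UMIs in the DG of section 1. Its mean share went the other way, with 0.0275% in the DG and 0.0374% in the CA1.

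Summed by receptor, NMDA subunits took 0.778%, 0.897% and 0.842% of UMIs in the DG, against 0.609%, 0.527% and 0.699% in the CA1. Every DG library lay above every CA1 library, with means of 0.839% ± 0.0595 and 0.612% ± 0.0858 (SD, n = 3 sections; exact permutation test, two-sided, p = 0.1, the smallest possible). This sum follows Grin2b: without it the difference between the regions was -0.00620 percentage points in place of 0.227. AMPA subunits took 0.806%, 0.809% and 0.762% in the DG, against 0.812%, 0.527% and 0.576% in the CA1. The DG libraries were close to each other, whereas the CA1 library of section 1 stood at the level of the DG and the other CA1 libraries below it, and the regions overlapped (0.792% ± 0.0262 against 0.638% ± 0.152, n = 3 sections, exact permutation test, two-sided, p = 0.4). All 7 genes together took 1.58% to 1.71% of UMIs in the DG and 1.05% to 1.42% in the CA1 (exact permutation test over the 6 libraries, two-sided, p = 0.1). That separation rested on Grin2b too, since without it the difference was 0.148 in place of 0.381 percentage points (exact permutation test, two-sided, p = 0.3).

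**Figure D2:**
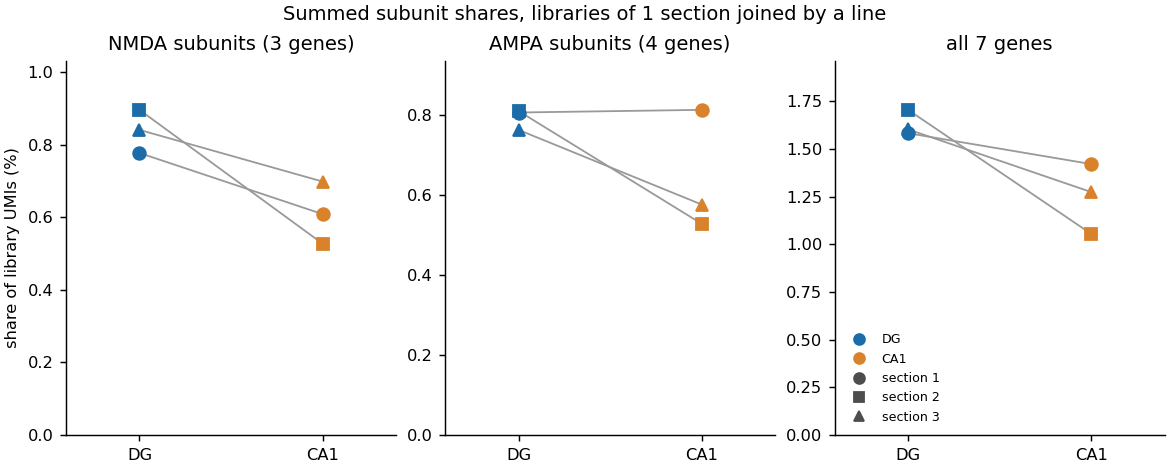
Share of the UMIs of a library (%, linear y axis from 0) summed over the NMDA subunits (left), the AMPA subunits (middle) and all 7 genes (right), with the DG (blue) and CA1 (orange) libraries of a section joined by a line. The NMDA sum is lower in the CA1 in 3 of 3 sections, and the AMPA sum in 2 of 3, with 0.806% and 0.812% in section 1.

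Other cell classes were compared beside these sums. The list of 10 pan-neuronal genes, all listed, took 0.522% to 0.715% of UMIs in the DG and 0.588% to 0.844% in the CA1, with the DG share above the CA1 share in 1 of 3 sections. Set against the UMIs of that list, NMDA subunits had 1.49, 1.58 and 1.18 UMIs per neuronal UMI in the DG, against 1.04, 0.625 and 1.06 in the CA1, without overlap (exact permutation test, two-sided, p = 0.1). This denominator was chosen after the data were seen. It was small, with 24 UMIs in the CA1 of section 2, and Syt1 gave more of its UMIs, 111, than any other gene. On the same denominator all 7 genes together overlapped, with 2.24 to 3.03 in the DG and 1.25 to 2.42 in the CA1 (exact permutation test, two-sided, p = 0.2). The AMPA subunits overlapped as well, with 1.07 to 1.54 and 0.625 to 1.38 (exact permutation test, two-sided, p = 0.2), and both sums had the higher value in the DG in 3 of 3 sections. Oligodendrocyte markers (7 of 8 listed) took 0.503% to 0.80% in the DG and 0.668% to 0.994% in the CA1, and astrocyte markers (9 of 10 listed) 0.372% to 0.508% and 0.374% to 0.563%. Both glial lists were lower in the DG in 3 of 3 sections, within overlapping ranges, and their part in the higher NMDA subunit share was not tested. Of the defining glial markers, Aqp4 had 0 UMIs in the DG and 1 in the CA1, and Mag and Gja1 were not among the genes listed. Interneuron, oligodendrocyte precursor, microglia and vascular markers had 12, 6, 2 and 2 UMIs in the DG, against 7, 3, 2 and 3 in the CA1.

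The balance of AMPA to NMDA subunits was near 1 UMI to 1 in most libraries. As Grin2b supplied 94.1% of the NMDA subunit UMIs, this balance largely sets the AMPA genes against 1 gene and is not one of receptors. The ratio was 1.04, 0.902 and 0.906 in the DG, against 1.33, 1.00 and 0.824 in the CA1 of sections 1, 2 and 3. The AMPA part of the UMIs of both families was 50.9%, 47.4% and 47.5% in the DG, against 57.1%, 50.0% and 45.2% in the CA1, so that the DG values fell within the range of the CA1. The means, 48.6% ± 1.96 and 50.8% ± 6.03 (SD, n = 3 sections), differed by -2.16 percentage points (DG minus CA1) with an SD of 4.33 between sections (exact permutation test, two-sided, p = 0.7), and by 1.03 without CA1 replicate 1. Without Grin2b the difference turned to 2.31 percentage points. With the UMIs of a region summed, the AMPA part was 49.6% in the DG (230 of 464 UMIs, exact 95% interval 44.9% to 54.2%) and 52.9% in the CA1 (119 of 225, 46.1% to 59.6%). Scaled to UMIs per kb of exon, the AMPA part came to 68.4% ± 2.92 (DG) and 72.0% ± 5.35 (CA1), since Grin2b and Grin2a have the longest annotated exon sequence of the members, 24.89 and 20.4 kb, and the regions still overlapped (exact permutation test over 6 libraries, two-sided, p = 0.5). Per kb the DG was the lower region in 3 of 3 sections, with a mean difference of -3.56 percentage points and an SD of 3.07 between sections, but with GENCODE M21 lengths it was higher in 1 of 3 (mean difference -2.60, SD 3.76). With 3 pairs, an exact sign-flip test cannot go below p = 0.25.

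The balance of Gria1 to Gria2, which bears on how many AMPA receptors could form without GluA2, varied more between sections than between regions. The ratio of Gria1 to Gria2 UMIs was 0.671, 0.259 and 0.167 in the DG, against 0.535, 0.0833 and 1.00 in the CA1. Without scaling by length, Gria2 had more UMIs than Gria1 in 5 of 6 libraries and as many, 11, in the CA1 of section 3. Gria1 made up 40.2%, 20.6% and 14.3% of the UMIs of this pair in the DG, against 34.8%, 7.69% and 50.0% in the CA1. Section 3 had the widest gap between its regions, with exact 95% intervals of 5.43% to 28.5% in the DG and 28.2% to 71.8% in the CA1, whereas those of section 1 were 31.7% to 49.0% and 23.5% to 47.6%. The means of 25% ± 13.5 and 30.8% ± 21.4 (SD, n = 3 sections) overlapped widely (exact permutation test, two-sided, p = 0.8), as did those per kb of exon, 43.0% ± 17.0 and 47.9% ± 27.9 (p = 0.9). The difference of -5.84 percentage points turned to 3.74 without CA1 replicate 3 and to 9.10 without replicate 3, so its direction rested on that section.

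**Figure D3:**
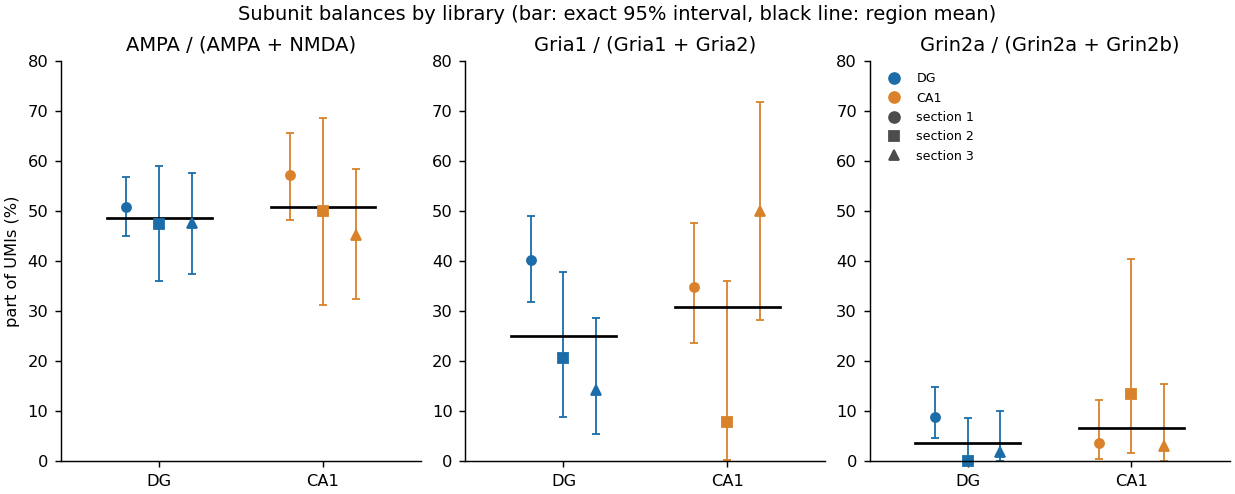
AMPA part of AMPA and NMDA UMIs (left), Gria1 part of Gria1 and Gria2 UMIs (middle) and Grin2a part of Grin2a and Grin2b UMIs (right), in percent on a linear axis from 0 to 80, for each DG (blue) and CA1 (orange) library with exact 95% intervals and the region mean as a black line. The AMPA part stays between 45.2% and 57.1%, the Gria1 part runs from 7.69% to 50.0%, and the Grin2a part does not exceed 13.3%.

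Levels of different subunits were compared per kb of annotated exon (union of RefSeq exons), over the 6 libraries. Gria2 stood at 293 ± 84.9, Grin2b at 278 ± 63.8 and Gria1 at 274 ± 154 CPM per kb (UMIs per 1000000 gene-assigned UMIs and kb, SD, n = 6 libraries). These 3 did not differ beyond their spread: Gria2 exceeded Gria1 in 3 of 6 libraries, Grin2b exceeded Gria1 in 3 of 6, and Gria2 exceeded Grin2b in 5 of 6. Gria3 followed at 129 ± 27.5, below Gria2 in 5 of 6 libraries. Grin2a at 15.9 ± 14.2, Gria4 at 15.2 ± 13.1 and Grin1 at 4.24 ± 10.4 CPM per kb came last and overlapped each other. With GENCODE M21 exon lengths, an alternative chosen after seeing the data, Gria3 was at 80.4 ± 17.2, Grin1 at 1.91 ± 4.68 and the first 3 at 290.4 (Gria2), 289.6 (Gria1) and 278 (Grin2b). Reverse transcription in this protocol starts from a poly-T primer, so counts need not grow with transcript length, and without scaling the order of shares was Grin2b, Gria2, Gria1, Gria3, Grin2a, Gria4 and Grin1.

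**Figure D4:**
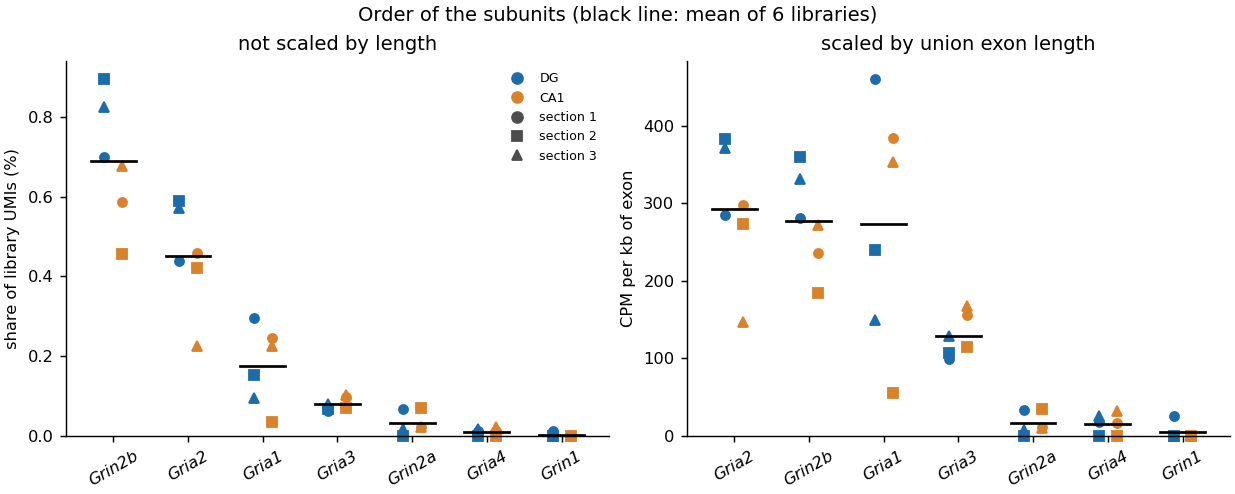
The 7 subunit genes in order of their mean over 6 libraries (black line), as share of library UMIs (left, %) and as CPM per kb of exon (right), with DG points in blue, CA1 points in orange and a symbol per section. Grin2b leads without scaling, whereas Gria2, Grin2b and Gria1 overlap at means of 274 to 293 once scaled by length.

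Across the 6 libraries, the share of Gria2 went with that of Grin2b at a Pearson's r of 0.516 and with that of Gria1 at -0.326, as a description of libraries that pair by section and differ in depth. The genes most like Grin2b, among 59 other genes with at least 60 UMIs, were Ube3a, a ubiquitin ligase, at r = 0.906 on the log2(CPM + 1) scale, the transcription factor gene Klf13 at 0.817 and the ribosomal protein gene Rpl37 at 0.755. The genes most like the summed AMPA subunits were Cplx2, which encodes a complexin of the presynaptic release machinery, at 0.943, the noncoding RNA Xist at 0.878 and Rtn1, a reticulon gene, at 0.857. Each of these 6 genes had at most 15 UMIs in any library of sections 2 and 3, and the values only order the genes.

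Of 37 further genes of the receptor complexes in 6 lists, 28 were listed, 25 of them with 1 to 8 UMIs over the 6 libraries, and 0 passed the filter of the test across all genes. The AMPA receptor auxiliary subunits, among them the TARPs and cornichons that set channel gating and delivery, had 25, 6 and 10 UMIs in the DG, against 15, 1 and 2 in the CA1 (10 of 14 genes listed). Frrs1l, an endoplasmic reticulum protein of AMPA receptor assembly, held most of them, with 16, 2 and 4 UMIs in the DG, against 7, 0 and 2 in the CA1. In 3 of 3 sections its DG share exceeded its CA1 share, within overlapping ranges (exact permutation test, two-sided, p = 0.4).

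The assembly and trafficking list (9 of 10 genes listed) had 22, 10 and 8 UMIs in the DG, against 21, 2 and 6 in the CA1. Nsf, the ATPase that binds GluA2 and disassembles SNARE complexes, had 9, 1 and 5 UMIs in the DG, against 2, 0 and 0 in the CA1. Each DG library lay above each CA1 library for Nsf, as for 7.11% of the 999 genes with at least 10 UMIs (exact permutation test, two-sided, p = 0.1), but the closest pair was 1 UMI in the DG of section 2 (0.0219%) and 2 UMIs in the CA1 of section 1 (0.0214%). The counts of 0 in the CA1 of sections 2 and 3 allow shares of up to 0.105% and 0.0617%, so the separation of the regions was not firm at this depth. In the looser edgeR fit the log2 fold change of Nsf was 2.08 (standard error 1.03, adjusted p = 0.880). Nsf reached 10 UMIs only through its DG counts, so neither its separation nor this value can support a regional difference. Olfm1, a secreted protein found with AMPA receptors, had 9, 6 and 2 UMIs in the DG, against 11, 2 and 2 in the CA1, and its mean shares of 0.0710% and 0.0763% did not differ beyond the spread (exact permutation test, two-sided, p = 0.9).

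The ADAR family, listed as RNA editing enzymes, had 7, 1 and 2 UMIs in the DG and 0 in all 3 CA1 libraries. Adarb2, whose product has no known editing activity, held 6 of these 10 UMIs, with 5, 1 and 0 in the DG. Adarb1, whose product edits the Gria2 transcript, had 1, 0 and 2 UMIs there, and Adar had 1, 0 and 0. Each had fewer UMIs than the other complex genes named here, and they were named with their values known. None of the 3 genes singly separated the regions, and their summed share was 0.0219% to 0.0389% in the DG, and a count of 0 over the CA1 libraries allows up to 0.0176% (3 UMIs over the group). Taken singly, the CA1 libraries of sections 1, 2 and 3 allow up to 0.0321%, 0.105% and 0.0617%, and the DG share was above that limit in section 1 and below it in sections 2 and 3 (exact permutation test, two-sided, p = 0.1). All 10 UMIs of this list lay in the DG, and it was singled out with its values known. Neither its separation nor this p-value can therefore support a regional difference. The other NMDA receptor subunits had 2 UMIs in the DG and 3 in the CA1, the extracellular AMPA receptor clustering genes 3 and 1, and the NMDA receptor auxiliary and co-agonist genes 3 and 4.

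**Figure D5:**
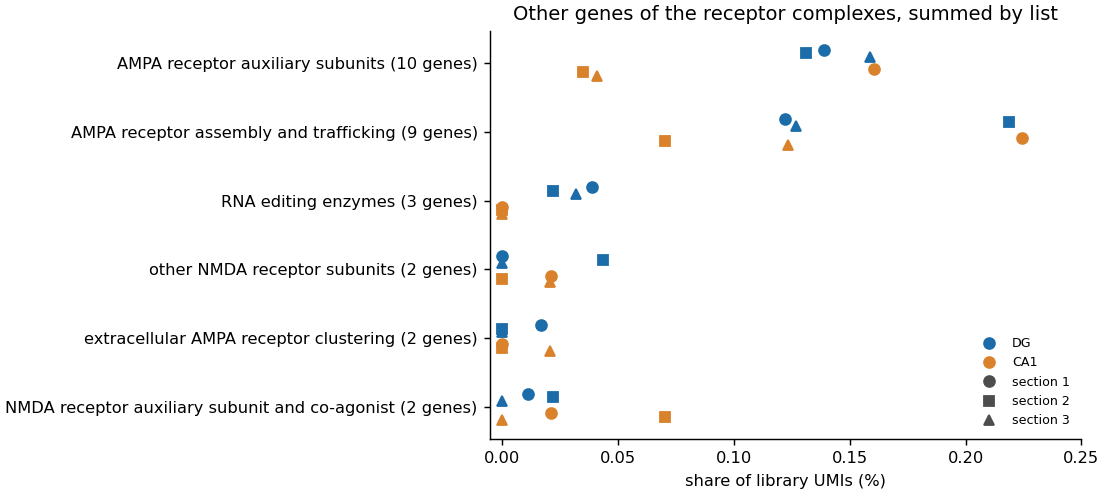
Summed share of library UMIs (%, linear x axis) for 6 lists of other receptor complex genes, with DG points in blue, CA1 points in orange and a symbol per section. The RNA editing enzymes, 6 of whose 10 UMIs are of Adarb2, are at 0 in the 3 CA1 libraries and at 0.0219% to 0.0389% in the DG, and the other 5 lists overlap between the regions. Singled out with its values known, and with all 10 UMIs in the DG, that list cannot support a regional difference.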

How the data were processed

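The RNA side of BALI-Multiome was analysed in 6 libraries, a DG and a CA1 library from each of 3 sections. The chromatin samples were not analysed here. The authors trimmed reads with cutadapt 4.1, aligned them to mm10 with STAR 2.7.9a, assigned them to genes with featureCounts of Subread 2.0.3 under default options and counted UMIs with UMI-tools. The deposited counts are whole numbers per gene and library with 1 added to each value, and this 1 was removed before any step, since it made up 29.4% to 72.5% of the deposited totals. UMIs are 6 bases long, so high counts are slightly understated. Deposited CPM values, means, SDs, fold changes and log10 ratios of the authors were not used.

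Shares were compared by exact two-sided permutation tests over 6 libraries, and counts by edgeR 4.0.16 quasi-likelihood tests with TMM scaling and filterByExpr (R 4.3.3, limma 3.58.1), first tested on simulated data, with DESeq2 1.42.0 as an alternative. The simulation had a fixed dispersion, no effect of section, and changes larger than those of Grin2b and Gria2. It therefore does not tell how often differences of their size would be called. P-values across genes were adjusted by the Benjamini-Hochberg method. Standard errors beside edgeR log2 fold changes are approximate: each is the absolute log2 fold change divided by the square root of its F statistic. Intervals on shares are exact (Clopper-Pearson) and cover counting error only. Ratios within a section carry exact conditional intervals. Python 3.11.15 and scipy 1.17.1 were used. Exon lengths and gene positions came from RefSeq for mm10, with GENCODE M21 as an alternative.

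The 7 members, the lists of other receptor genes and the marker lists were chosen with earlier results of these data known. All members were named, together with the listed complex genes of at least 10 UMIs and the 3 genes most like Grin2b and the AMPA sum. The ADAR family genes, each under 10 UMIs, were named outside this rule with their values known. Both libraries of a section share its tissue, so the sections pair the samples by design. The permutation tests do not use this pairing, whereas the exact sign-flip tests do. The deviations of the paired libraries correlated at r = 0.154, 0.0414 and 0.0724 over 999 genes in sections 1, 2 and 3. Alternatives covered the scaling, filters, the added count, a replicate block, summed sections and each library left out. The GENCODE lengths and the pan-neuronal denominator were added after the data were seen.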

Additional observations from a re-analysis of the deposited data

How the results depend on the processing

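Most comparisons rested on few UMIs. Grin1, Gria4 and Grin2a had 2, 5 and 18 UMIs in all, so that depth limits their regional comparison, and 25 of 28 other receptor complex genes had fewer than 10. The differences given here are DG minus CA1, in percentage points unless stated. The NMDA subunit share differed by 0.227, and by -0.00620 without Grin2b. The Grin2b share differed by 0.233, and by 0.241 without the top 5 genes in the total, where the regions overlapped. The AMPA part turned from -2.16 to 2.31 without Grin2b. The Grin2a part turned from -3.07 to 0.886 with UMIs summed over sections, and the Grin2a share from -0.00990 to 0.0157 there and to 0.00360 on the counts as deposited.

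With single libraries or sections left out, the share of all 7 genes differed by 0.246 to 0.490, of NMDA subunits by 0.156 to 0.270, of AMPA subunits by 0.0900 to 0.241, of Grin2b by 0.130 to 0.294, of Gria2 by 0.0740 to 0.257 and of Gria3 by -0.0308 to -0.0140. Directions turned for the Gria1 share (-0.0550 to 0.0833, turning without replicate 1 at -0.00645, replicate 2 at -0.0411, DG replicate 1 at -0.0448 or CA1 replicate 2), the Gria4 share (-0.00662 to 0.00365, without replicate 3 at 0.000212, DG replicate 2 at 0.00308 or CA1 replicate 3) and the Grin2a share (-0.0375 to 0.0203, without replicate 2, DG replicate 2 at 0.00386 or CA1 replicate 2 at 0.00655). They also turned for the AMPA part (-4.96 to 1.03, without CA1 replicate 1), the Gria1 part (-17.4 to 9.10, without replicate 3 or CA1 replicate 3 at 3.74) and the Grin2a part (-7.19 to 2.07, without replicate 2 or CA1 replicate 2 at 0.303). In edgeR the log2 fold change of Gria1 ranged from -0.70 to 0.70 (-0.06 without replicate 2, -0.70 without DG replicate 1 and -0.09 without CA1 replicate 2), that of Gria2 from 0.19 to 1.11 and that of Grin2b from 0.29 to 0.68. The causes of these turns were not tested.

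The number of genes called by edgeR was 0 in 16 of 17 alternatives, the replicate block on the filtered genes and every left-out library (0 to 0) included. It was 1, Prkce, with no filter and the replicate block. Under the replicate block, which pairs the libraries of a section, Grin2b had a log2 fold change of 0.52 (adjusted p = 0.316 in edgeR) and Gria2 of 0.50 (adjusted p = 0.363 in edgeR), and no call on a member changed. Over all alternatives the adjusted p in edgeR ran from 0.282 to 0.984 for Grin2b and from 0.0680 to 0.984 for Gria2. Without a filter, the median log2 fold change of all 7507 genes was 0.46, against 0.64 for Grin2b and 0.65 for Gria2.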
